A study of Mus musculus with 17 samples.

Results

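Spermatogonia lacking *Nat10* were compared with wild-type (WT) spermatogonia, using 6 of the 17 RNA-seq libraries of a mouse study of spermatogenesis. The members were fixed by the sample labels: 3 libraries labelled spermatogonia (SPG) with genotype Stra8-cre_Nat10_KO (replicates 1, 3 and 4, written SKO) and 3 labelled SPG with genotype Wildtype (replicates 1, 2 and 3, written WT), all from strain C57BL/6. The *Nat10*-SKO males carry 1 floxed and 1 deleted *Nat10* allele, and a Cre recombinase knocked into the *Stra8* locus removes exons 4 and 5 of the floxed allele in germ cells from before meiosis on. Cells of the testis that do not express *Stra8* keep the floxed allele and also carry the deleted one. The *Stra8* locus itself is altered in the Cre mice, so *Stra8* reads compare a knock-in with an unmodified locus. Cells were sorted by flow cytometry, and their polyadenylated RNA was amplified and sequenced. The age of the animals behind these libraries, and whether each library came from a separate animal, are not given in the sources used here, so the p-values measure the spread between these samples.

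Spermatogonia are the dividing germ cells at the base of the seminiferous tubule. Undifferentiated spermatogonia include the stem cells and respond to GDNF, differentiating spermatogonia express the receptor *Kit* and divide by mitosis, and retinoic acid then switches on *Stra8* and the genes of meiotic prophase. NAT10 is an acetyltransferase that forms N4-acetylcytidine in RNA, best known in 18S ribosomal RNA and in transfer RNA, and it takes part in ribosome assembly. The tubule also holds Sertoli cells, and around it lie peritubular myoid cells, Leydig cells, fibroblasts, vessels and macrophages, whose transcripts are described apart from those of germ cells below.

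Of 23282 genes in the deposited table, 12846 had a mean of 10 or more reads over the 6 libraries and were tested. A gene near 0 reads in 1 genotype was tested only where the other genotype had enough reads. Counts and medians of lists with many sparse genes, such as the somatic and spermatid lists, are therefore partly set by this filter. List sums in RPM (reads scaled to the total of each library) include members that were not tested. Depth ranged from 9885136 to 13042071 reads per library. SKO SPG 4 had 17767 genes with at least 1 read against 14493 to 15467 in the other 5 libraries, and the counts given for lists include it. A gene passed the test at a Benjamini-Hochberg adjusted p (limma) under 0.05 with a log2 fold change beyond 1 in size, computed on values rescaled to a common level with 10 added. On this scale 2.06% of the tested genes were lower and 3.95% were higher in the SKO libraries, and the median change of all genes was 0.0014. Without the fold threshold the shares were 4.84% lower and 6.22% higher. In 14.4% of the tested genes every SKO library lay below every WT library, and in 15.2% every SKO library lay above. The deposited values are scaled to spike-in RNA. Without rescaling the median of all genes was −0.25 in SKO over WT, so every change given here is relative to the median gene of the libraries. Sorted populations were measured in bulk, and fewer cells of a type and less RNA per cell cannot be told apart.

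*Nat10* (chromosome 2, 103721256 to 103761270, minus strand, GRCm38) had 485, 350 and 446 reads in WT and 159, 197 and 269 in SKO. The groups did not overlap, and reads over exons outside the deleted part count in these values. The rescaled level was 450 ± 38.4 (SD, n = 3) in WT and 244 ± 48.4 in SKO. The change was −0.87 ± 0.24 on the log2 scale (SE, adjusted p = 0.0326, limma), which did not reach the fold threshold. Without rescaling it was −1.14 (adjusted p = 0.0141, limma), which passes. Its adjusted p exceeded 0.05 in 5 of the 6 fits that left out 1 library (0.0532 to 0.134, limma) and was 0.0456 without SKO SPG 4.

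The spermatogonial identity of both genotypes was read from marker genes. Differentiation and meiotic entry genes were abundant in all 6 libraries, and the markers of undifferentiated cells were sparse. *Kit*, the receptor for stem cell factor, had 2268, 1949 and 1737 reads in WT and 2490, 2203 and 3245 in SKO. *Gfra1*, the GDNF co-receptor, had 36, 0 and 38 reads in WT and 0, 21 and 0 in SKO. *Zbtb16*, a transcription factor of undifferentiated spermatogonia, had 71, 28 and 36 reads in WT and 45, 8 and 52 in SKO. The WT and SKO values of *Gfra1* and *Zbtb16* overlapped, and neither gene passed the test.

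Of 22 tested undifferentiated spermatogonia genes, 1 was higher and none was lower in SKO, with a list median of −0.24 (−0.46 without rescaling). A count of 1 here is near the 3.95% of all tested genes that were higher. The gene that rose was *Upp1*, which encodes uridine phosphorylase and had 2, 0 and 2 reads in WT against 11, 50 and 53 in SKO. The pan germ cell genes did not move past the threshold. None of 23 passed, and their median was 0.13, or −0.14 without rescaling. *Dazl*, an RNA-binding protein of germ cells, had 28122, 29202 and 23948 reads in WT and 27792, 22907 and 31058 in SKO. *Ddx4*, a germ cell RNA helicase, changed by −0.10 ± 0.11 (SE, adjusted p = 0.611, limma). The values of both genes overlapped between genotypes.

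Several genes at the step from differentiation to meiosis had higher values in the SKO libraries, most of them below the fold threshold. Of 12 differentiating spermatogonia genes, *Sohlh2* alone passed. *Sohlh2*, a basic helix-loop-helix factor needed for spermatogonial differentiation, had 610, 423 and 465 reads in WT and 1087, 949 and 1610 in SKO, and rose by 1.40 ± 0.17 on the log2 scale (SE, adjusted p = 0.000343, limma). Its SKO values all exceeded its WT values. *Kit* changed by 0.56 ± 0.13 (adjusted p = 0.0137, limma) and *Stra8* by 0.53 ± 0.13 (adjusted p = 0.0168, limma), and neither reached the fold threshold. *Sohlh1*, the partner of *Sohlh2*, changed by 0.55 ± 0.18 (adjusted p = 0.0666, limma). *Dmrtb1*, a transcription factor gene of the same list, went the other way. It had 1669, 1613 and 1792 reads in WT and 859, 860 and 1163 in SKO, and changed by −0.67 ± 0.14 (adjusted p = 0.0101, limma), which is also under the fold threshold.

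Of 41 tested genes of meiotic entry and early prophase, 2 rose and none fell past the fold threshold. That count is near the 3.95% of all tested genes that were higher. Without that threshold 11 were higher and 2 lower. In 16 of them every SKO library lay above every WT library, against 15.2% of all genes, and in 4 every SKO library lay below. The list median was 0.29 and shrank to 0.03 without rescaling, where 1 member passed as higher. The genes that rose were *Mnd1*, a partner of the recombinases, and *Hormad2*, a chromosome axis protein. *Mnd1* had 180, 81 and 45 reads in WT and 319, 258 and 228 in SKO (log2 fold change 1.65 ± 0.40, adjusted p = 0.0173, limma). *Hormad2* had 313, 144 and 244 reads in WT and 399, 407 and 552 in SKO (1.13 ± 0.25, adjusted p = 0.0116, limma). Neither gene overlapped between genotypes.

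*Dmc1*, the meiotic recombinase, was the defining member nearest the threshold. It had 909, 853 and 897 reads in WT and 1572, 1248 and 1701 in SKO, a change of 0.90 ± 0.14 (adjusted p = 0.0015, limma). *Sycp3*, a lateral element protein of the synaptonemal complex named here after its values were seen, had 10825, 8216 and 9862 reads in WT and 14403, 12578 and 16674 in SKO (0.75 ± 0.10, adjusted p = 0.00067, limma). *Sycp1*, the transverse filament protein, changed by 0.36 ± 0.10 (adjusted p = 0.0412, limma). *Rec8*, the meiotic cohesin, changed by −0.04 ± 0.23 (adjusted p = 0.939, limma). *Spo11*, the enzyme that makes meiotic double-strand breaks, had 114, 57 and 62 reads in WT and 0, 24 and 75 in SKO, which overlap.

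**Figure D1:**
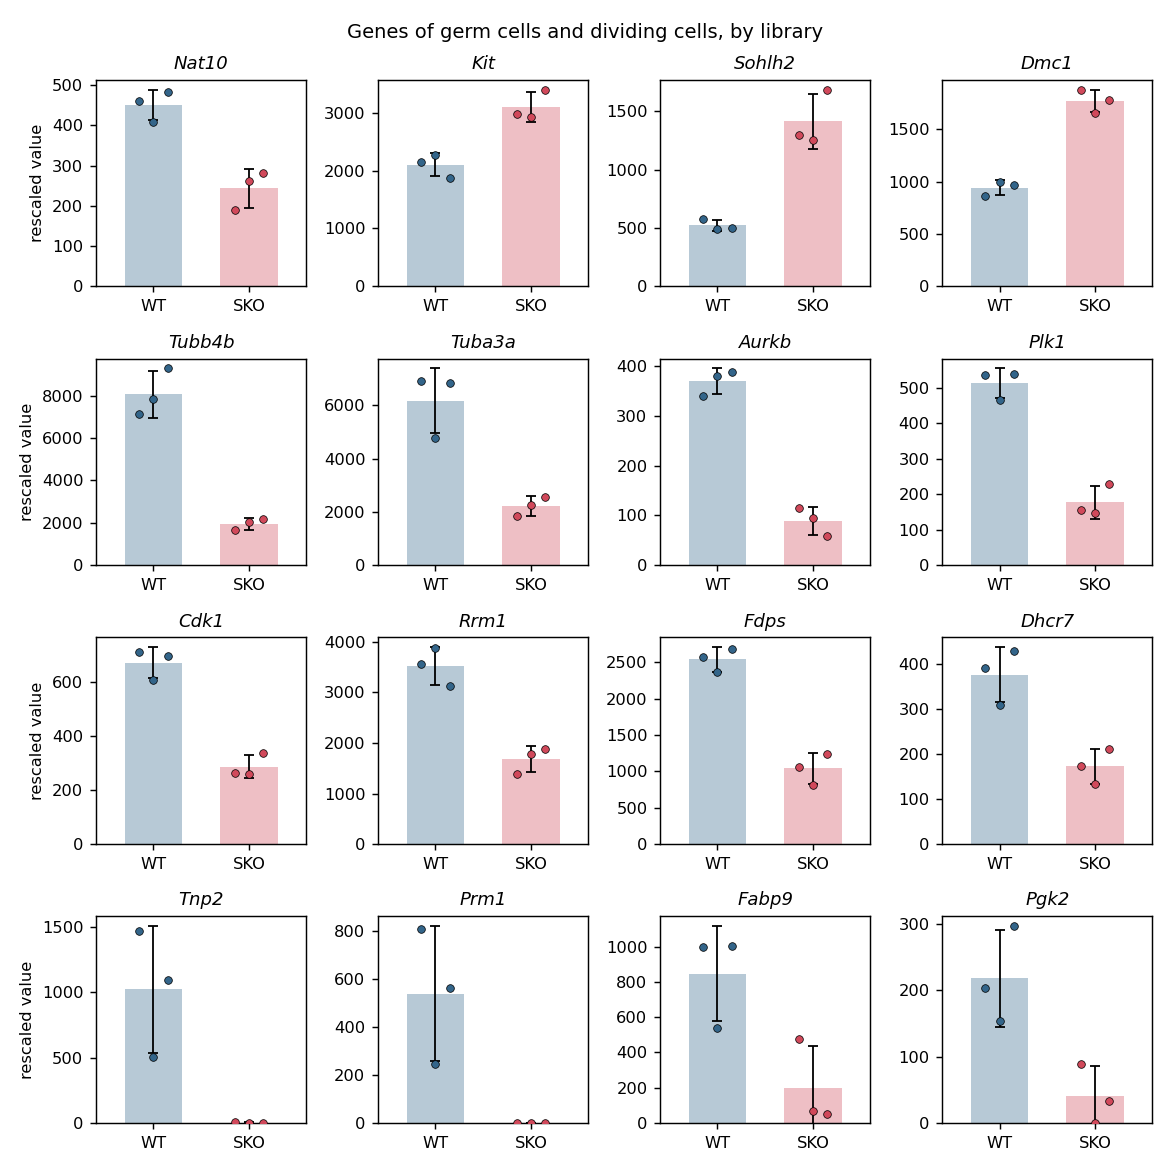
Rescaled values of 16 genes in the 3 WT (blue) and 3 SKO (red) spermatogonia libraries. Bars are means, points are libraries and error bars are 1 SD, cut at 0. *Sohlh2* is higher in every SKO library, *Tubb4b*, *Aurkb* and *Fdps* are lower in every SKO library, and *Tnp2* and *Prm1* are near 0 there.

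Some tubulin transcripts and some transcripts of mitotic regulators were lower in the SKO spermatogonia. Tubulins are given first. The tubulin list was made after the values were seen, so its counts describe and do not test. Of 15 tubulins tested, 3 fell and 1 rose. *Tubb4b*, a beta-tubulin, had 7490, 6713 and 8576 reads in WT and 1376, 1525 and 2079 in SKO. Its rescaled mean was 8070 ± 1107 in WT and 1946 ± 276 in SKO, which is −2.05 ± 0.14 on the log2 scale (adjusted p = 8.34e-06, limma). *Tuba3a* had 7274, 4083 and 6309 reads in WT and 1533, 1691 and 2460 in SKO (−1.47 ± 0.16, adjusted p = 0.000196, limma). *Tuba3b* changed by −1.11 ± 0.15 (adjusted p = 0.00067, limma). *Tuba3a* and *Tuba3b* are alpha-tubulins with near-identical sequences, so how reads were split between them is uncertain. *Tubb5* went up, from 535, 756 and 532 reads in WT to 1648, 1343 and 1043 in SKO (1.28 ± 0.24, adjusted p = 0.00441, limma). Over the whole list the sum was 1289 to 1629 RPM (reads scaled to the total of each library) in WT and 623 to 687 in SKO. In leptotene/zygotene libraries it was 3303 to 3366 RPM in WT and 800 to 959 in SKO. Whether the tubulin fall belongs to dividing or to later germ cells was not tested.

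Of 49 tested cyclins, kinases and mitotic regulators, 3 fell and none rose, and 9 fell without rescaling. *Aurkb*, the kinase of the chromosomal passenger complex, had 359, 327 and 359 reads in WT and 96, 71 and 56 in SKO (−1.98 ± 0.32, adjusted p = 0.00178, limma). *Plk1*, a kinase of mitotic entry and spindle assembly, had 564, 400 and 499 reads in WT and 130, 110 and 220 in SKO (−1.51 ± 0.25, adjusted p = 0.00243, limma). *Cdk1*, the kinase that drives mitosis, had 753, 522 and 645 reads in WT and 221, 197 and 322 in SKO (−1.21 ± 0.21, adjusted p = 0.0028, limma). All 3 genes were lower in every SKO library. *Ccnb1*, the cyclin partner of *Cdk1*, changed by −0.43 ± 0.13 (adjusted p = 0.0559, limma). In 18 of the 49 genes every SKO library lay below every WT library, against 14.4% of all genes, and in 5 every SKO library lay above. The list median was −0.24 (−0.51 without rescaling).

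Among 54 kinetochore, condensin and E2F genes, a list made after the values were seen, 11 fell and none rose, with a median of −0.41. Without WT SPG 3 the count was 6. *E2f2*, a transcription factor of the G1 to S transition, had 407, 311 and 397 reads in WT and 76, 123 and 32 in SKO (−2.14 ± 0.42, adjusted p = 0.0062, limma). *Rangap1*, the GTPase activator of RAN, had 860, 636 and 804 reads in WT and 253, 143 and 241 in SKO (−1.69 ± 0.22, adjusted p = 0.000526, limma). *E2f7* and *Ercc6l*, which encode an E2F repressor and a mitotic helicase, fell by 1.53 and 1.76 on the log2 scale. *Ndc80*, a core kinetochore protein, changed by −0.24 ± 0.20 (adjusted p = 0.496, limma), and *E2f1* by −0.79 ± 0.30 (adjusted p = 0.114, limma).

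Of 48 DNA replication genes, 2 fell and none rose past the fold threshold, and 15 were lower and none higher without it. In 21 every SKO library lay below every WT library, against 14.4% of all genes, and in 2 every SKO library lay above. *Uhrf1*, which recruits maintenance DNA methylation to replicating DNA, had 1391, 1015 and 1056 reads in WT and 383, 417 and 529 in SKO (−1.21 ± 0.17, adjusted p = 0.000674, limma). *Rrm1*, a subunit of ribonucleotide reductase, had 3758, 3320 and 2894 reads in WT and 1164, 1336 and 1801 in SKO (−1.07 ± 0.15, adjusted p = 0.000666, limma). *Pcna*, the sliding clamp, changed by −0.70 ± 0.11 (adjusted p = 0.0017, limma) and *Mcm2*, a helicase subunit, by −0.34 ± 0.15 (adjusted p = 0.16, limma). The list median was −0.27 (−0.54 without rescaling). Of 10 tested replication-dependent histones, whose messages are mostly not polyadenylated, *Hist1h2bc* rose and none fell.

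Proximal promoters of 3 of the mitotic genes and of 1 sterol gene described next are printed to show which short motifs they carry. RefSeq start sites (GRCm38.p6) were used, and the 120 bases before the start are given 5′ to 3′ on the gene's strand. Capitals mark CCAAT, which is the binding element of the factor NF-Y, and TTTGAA, the core of the cell cycle homology region, each searched on both strands (so ATTGG and TTCAAA also count). Neither motif contains the other. The genes are *Cdk1* (chr10:69352913-69353032, minus strand), *Fbxo5* (chr10:5805466-5805585, minus), *Cdca5* (chr19:6084977-6085096, plus) and *Hsd17b7* (chr1:169969206-169969325, minus).
Cdk1: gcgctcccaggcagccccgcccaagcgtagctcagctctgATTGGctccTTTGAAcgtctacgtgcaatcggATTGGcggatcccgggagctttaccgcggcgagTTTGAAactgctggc
Fbxo5: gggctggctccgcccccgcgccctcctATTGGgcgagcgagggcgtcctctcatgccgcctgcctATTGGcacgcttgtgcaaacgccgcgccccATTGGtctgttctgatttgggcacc
Cdca5: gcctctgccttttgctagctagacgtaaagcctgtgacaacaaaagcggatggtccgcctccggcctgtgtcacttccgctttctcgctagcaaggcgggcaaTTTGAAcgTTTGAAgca
Hsd17b7: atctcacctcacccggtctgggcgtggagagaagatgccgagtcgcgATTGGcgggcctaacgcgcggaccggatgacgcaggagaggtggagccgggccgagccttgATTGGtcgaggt
*Cdk1* held 2 matches of each motif, *Fbxo5* 3 matches of CCAAT, *Cdca5* 2 of TTTGAA and *Hsd17b7* 2 of CCAAT. *Fbxo5*, an inhibitor of the anaphase-promoting complex, and *Cdca5*, a protector of cohesion, were chosen for their windows and had fallen by 1.48 and 1.5 on the log2 scale (adjusted p = 0.00876 and 0.00435, limma).

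Over the windows from 250 bases before to 50 bases after each start, TTTGAA stood in 20.2% of the 27025 genes with a window. It stood in 21 of 45 kinetochore, condensin and E2F genes and in 15 of 38 cyclins, kinases and mitotic regulators, but in 5 of 39 DNA replication genes, or 12.8%. CCAAT stood in 41.1% of all genes, in 27 of the same 38 and in 18 of 20 genes of the cholesterol list. Spermatid genes had CCAAT in 19 of 42 windows and TTTGAA in 8. A match is a description of the letters and is not a measured binding site.

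Sterol synthesis genes were lower in the SKO spermatogonia. The list of cholesterol biosynthesis genes and SREBP targets was made after the values were seen. Of 27 tested, 6 fell and none rose, 12 were lower without the fold threshold, and in 16 every SKO library lay below every WT library. *Fdps*, which makes farnesyl diphosphate, had 2711, 2027 and 2488 reads in WT and 891, 618 and 1188 in SKO (−1.30 ± 0.16, adjusted p = 0.000362, limma). *Insig1*, the sterol-regulated anchor of SREBP in the endoplasmic reticulum, had 3611, 6008 and 5074 reads in WT and 2568, 1857 and 1482 in SKO (−1.16 ± 0.25, adjusted p = 0.0101, limma). The SKO values of both were below all WT values. *Dhcr7*, a reductase at the end of the pathway, had 412, 265 and 395 reads in WT and 146, 100 and 201 in SKO (−1.09 ± 0.27, adjusted p = 0.0214, limma). *Hsd17b7*, an enzyme of sterol demethylation, had 510, 431 and 615 reads in WT and 127, 234 and 251 in SKO (−1.20 ± 0.28, adjusted p = 0.0138, limma). The list sum was 2370 to 2666 RPM in WT and 1584 to 1807 in SKO. Without WT SPG 3 the count that fell was 3.

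The protein synthesis machinery, to which NAT10 itself belongs, showed small shifts. None of 68 ribosome biogenesis factors passed the test, with a median of −0.04 (−0.30 without rescaling), and none of 52 translation factors did. Of 16 proteins of the small nucleolar RNA complexes, *Nop10* fell, from 2474, 2651 and 2939 reads in WT to 1244, 1227 and 1096 in SKO (−1.01 ± 0.16, adjusted p = 0.00188, limma). *Nop10* is a core protein of the H/ACA particles. Of 78 cytosolic ribosomal proteins none fell past the fold threshold and 1 rose. Without the fold threshold 28 were lower and 1 higher. In 48 every SKO library lay below every WT library and in 4 above, against 14.4% and 15.2% of all genes. The median of the ribosomal protein list was −0.34 (−0.61 without rescaling). The ribosomal protein gene that rose, *Rps4x*, is X-linked and had 554, 398 and 393 reads in WT and 1529, 1347 and 911 in SKO (1.61 ± 0.23, adjusted p = 0.000825, limma). *Rps4x* has near-identical processed copies, so its count is uncertain. Ribosomal protein genes summed to 52335 to 55003 RPM in WT and 42062 to 47944 in SKO. None of 74 oxidative phosphorylation subunits passed (8 were lower without rescaling), but 18 were lower and 1 higher without the fold threshold. In 30 every SKO library lay below every WT library, and in 6 every SKO library lay above. None of 42 proteasome subunits passed, and 8 were lower and 1 higher without the fold threshold. In 17 every SKO library lay below every WT library, and in 8 every SKO library lay above. The proteasome sums overlapped, with 11939 to 13820 RPM in WT and 11195 to 12280 in SKO. None of 28 WNT and NOTCH genes passed. Of 40 chromatin modifiers of spermatogonia *Uhrf1* alone fell, and of 24 genes of X-linked germ cell families *Akap4*, described with the spermatid genes, alone fell, with a median of 0.36 (0.09 without rescaling). Of 37 aminoacyl-tRNA synthetases, *Tarsl2*, a threonyl-tRNA synthetase-like enzyme, rose. The counts for the chromatin modifiers and the synthetases are near the shares of all tested genes, 2.06% lower and 3.95% higher.

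A share of the transcripts of later germ cells was lower in the SKO libraries. Of 47 tested spermatid transcripts 22 fell and none rose, and in 27 every SKO library lay below every WT library. The list summed to 901, 420 and 674 RPM in WT and 261, 178 and 211 in SKO, without overlap. The chromatin-packing genes *Prm1*, *Prm2*, *Prm3* and *Tnp2* lie side by side on chromosome 16 between 10787936 and 10805839 (GRCm38). *Prm3* had 243, 73 and 196 reads in WT and 0, 0 and 2 in SKO. *Tnp1*, a transition protein on chromosome 1, had 550, 172 and 261 reads in WT and 0, 0 and 9 in SKO. In *Prm3* and *Tnp1* WT SPG 2 was the lowest of the WT libraries.

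Further spermatid genes had few or no reads in SKO. *Akap4*, the main fibrous sheath protein of the sperm tail and X-linked, had 282, 69 and 182 reads in WT and none in SKO, which makes it at least 22.6-fold lower when the lowest WT library is set against a floor of 3 reads per SKO library. *Smcp*, a sperm mitochondrial protein named after its values were seen, had 283, 132 and 102 reads in WT and none in SKO. *Acrv1*, an acrosomal protein, had 46, 48 and 54 reads in WT and none in SKO, at least 12.2-fold lower on the same floor. *Hmgb4*, a high mobility group protein of spermatids, had 362, 76 and 200 reads in WT and 7, 0 and 0 in SKO. *Oaz3*, the testis form of antizyme, had 419, 178 and 262 reads in WT and 5, 21 and 23 in SKO (−3.43 ± 0.46, adjusted p = 0.000577, limma). No SKO library of these genes reached the lowest WT library. Without WT SPG 1 the list count was 14.

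Transcripts that begin in pachytene spermatocytes were uneven among the SKO libraries. Of 24 tested, 5 fell and none rose. *Ldhc*, the testis lactate dehydrogenase, had 1648, 536 and 1106 reads in WT and 749, 1 and 57 in SKO, so SKO SPG 1 lay inside the WT range. *Meig1*, a protein needed for sperm assembly, had 1002, 321 and 616 reads in WT and 471, 13 and 57 in SKO, also overlapping. *Adam2*, a sperm surface protein, had 79, 80 and 107 reads in WT and 40, 0 and 0 in SKO. *Fabp9*, a testis fatty-acid binding protein that is not in this list, had 1054, 461 and 926 reads in WT and 399, 49 and 50 in SKO. *Pgk2*, the testis phosphoglycerate kinase, had 214, 132 and 274 reads in WT and 75, 0 and 31 in SKO. *Piwil1*, a piRNA-binding protein, had 107, 75 and 194 reads in WT and 41, 12 and 19 in SKO. The 5 calls of this list became 9 without SKO SPG 1, 2 without WT SPG 2, 1 without SKO SPG 3, and 0 without WT SPG 1, WT SPG 3 or SKO SPG 4.

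Among genes with a WT mean of 300 or more, 68 fell and 50 rose. With a WT mean under 300, 197 fell and 458 rose. The cut was made on the WT mean alone, so it leaves out genes that rose from a low WT level. The balance of lower and higher genes is therefore partly set by the cut. The number of genes tested at each level is not given here, so these counts describe and do not test. The examples here were chosen after their values were seen. *Ubl5*, a ubiquitin-like splicing protein, had 3718, 3162 and 3577 reads in WT and 1304, 1366 and 1499 in SKO. *Gng5*, a G protein subunit, had 11430, 10609 and 11562 reads in WT and 5053, 4912 and 4975 in SKO. *Exosc2*, a subunit of the RNA exosome, had 11308, 11084 and 9825 reads in WT and 19271, 20454 and 19128 in SKO. *Celf2*, an RNA-binding splicing regulator, had 2060, 1776 and 1733 reads in WT and 5216, 3552 and 5445 in SKO (1.48 ± 0.13, adjusted p = 2.89e-05, limma). *Ctcfl*, the germ cell paralog of CTCF, had 1587, 1381 and 1544 reads in WT and 3024, 2424 and 2966 in SKO (1.05 ± 0.12, adjusted p = 0.000282, limma). None of these 5 genes overlapped between genotypes.

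**Figure D2:**
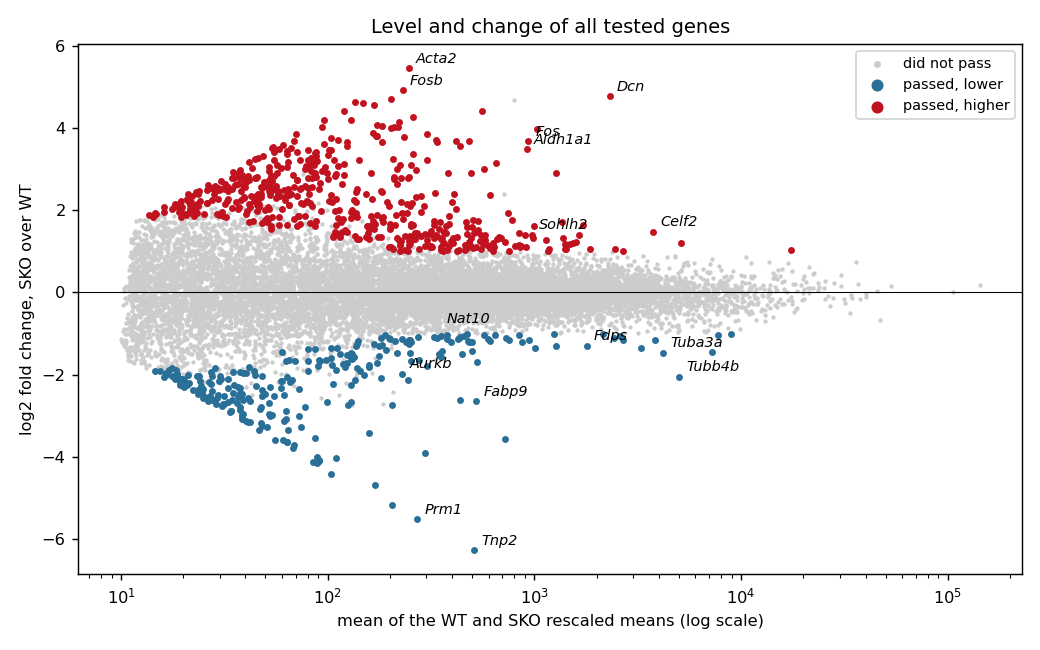
Log2 fold change (y axis) against mean rescaled level (x axis, log scale) for the 12846 tested genes, with the genes that passed in blue (lower) and red (higher). Genes that passed with a WT mean under 300 number 197 lower and 458 higher, and *Fos* is among these. These counts were split on the WT mean alone, whereas the x axis averages the WT and SKO means, so they do not give positions along that axis. *Tubb4b*, *Fos* and *Celf2* are among the labelled points.

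Members of the somatic lists that passed the test were mostly higher. Of the 508 genes that were higher, 83 belonged to the somatic lists, against 2 of the 265 that were lower. The share of all tested genes in these lists was not computed, and the lists were chosen with earlier results known. The 2 counts therefore describe and do not test. All genes that rose took 0.516% to 0.587% of the reads in WT and 1.54% to 1.98% in SKO. The genes that fell took 0.962% to 1.06% in WT and 0.370% to 0.385% in SKO. Both sets were picked for their change in these same libraries, so the gap between genotypes was set by that choice. The shares only describe the size of the sets. Libraries SKO SPG 1, 3 and 4 ranked in that order for Leydig, fibroblast and macrophage sums, whereas the MHC class II sum was lowest in SKO SPG 1.

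Leydig cells are the steroid-making cells between tubules. Of 14 tested Leydig cell genes 8 rose and none fell, with a median of 2.5. The list summed to 85.0, 49.4 and 78.8 RPM in WT and 426, 269 and 172 in SKO. *Cyp17a1*, the androgen-forming lyase, had 7, 1 and 61 reads in WT and 567, 408 and 250 in SKO (4.28 ± 0.62, adjusted p = 0.000957, limma). *Akr1cl*, an aldo-keto reductase, had 101, 2 and 65 reads in WT and 1300, 727 and 620 in SKO. *Insl3*, the peptide hormone of Leydig cells, had 28, 0 and 1 reads in WT and 159, 64 and 35 in SKO. *Hsd3b1* and *Hsd3b6*, 3-beta-hydroxysteroid dehydrogenases, had 0, 0 and 77, and 73, 1 and 0 reads in WT. In the genes named so far in this group every SKO library exceeded every WT library. *Star*, which carries cholesterol into mitochondria, changed by 1.74 ± 0.56 (adjusted p = 0.0622, limma). The count was 5 without WT SPG 2, WT SPG 3 or SKO SPG 1.

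Fibroblast and matrix genes rose as well. Of 30 tested interstitial fibroblast genes 17 rose and none fell, with a median of 2.39, and the list summed to 181, 112 and 166 RPM in WT and 1219, 905 and 688 in SKO. *Bgn*, the proteoglycan biglycan, had 0, 1 and 3 reads in WT and 185, 229 and 183 in SKO. *Apoe*, a lipid carrier also made by macrophages, had 177, 53 and 121 reads in WT and 1975, 1496 and 1410 in SKO (3.98 ± 0.30, adjusted p = 1.04e-05, limma). *Cxcl12*, a chemokine of stromal cells, had 0, 0 and 2 reads in WT and 189, 101 and 205 in SKO. No WT library of these genes reached the lowest SKO library. Of 19 collagens 7 rose (4 without SKO SPG 4) and 2 fell (none without WT SPG 1 or WT SPG 3). *Col1a2*, a chain of type I collagen, had 45, 3 and 26 reads in WT and 569, 307 and 231 in SKO. The collagens that fell were *Col5a1*, with 148, 119 and 169 reads in WT and 25, 36 and 49 in SKO, and *Col17a1*, with 42, 39 and 15 reads in WT and 1, 2 and 1 in SKO. Of 43 matrix glycoproteins, integrins and proteases 10 rose, among them the protease *Adamts5* (28, 3 and 15 reads in WT, and 522, 271 and 283 in SKO).

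Peritubular myoid cells contract the tubule. Of 14 of their genes tested, 7 rose and none fell, with a median of 1.65. *Cald1*, the actin-binding caldesmon, had 0, 1 and 1 reads in WT and 240, 270 and 157 in SKO. *Myl9*, a myosin light chain, had 28, 18 and 9 reads in WT and 300, 196 and 167 in SKO (3.23 ± 0.44, adjusted p = 0.000673, limma). *Myh11*, smooth muscle myosin, had 0, 3 and 3 reads in WT and 33, 60 and 63 in SKO, whereas *Cnn1*, calponin, stayed at 0 to 6 reads in all 6 libraries.

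Macrophage and antigen presentation genes were higher in SKO. Of 26 macrophage genes 17 rose and none fell (11 without WT SPG 3), and the list summed to 98.8, 121 and 115 RPM in WT and 504, 377 and 275 in SKO. *Mrc1*, the mannose receptor, had 1, 18 and 0 reads in WT and 414, 318 and 262 in SKO. *Folr2*, a folate receptor of resident macrophages, had no reads in WT and 70, 116 and 53 in SKO, at least 17.4-fold higher when the lowest SKO library is set against 3 reads per WT library. *Csf1r*, the receptor for CSF1, had 55, 10 and 14 reads in WT and 306, 28 and 109 in SKO, which overlap. Of 11 listed MHC class II genes 5 were tested, and all 5 rose (4 without SKO SPG 4), with a median of 3.66. Their low WT reads mean that the SKO reads largely decided which were tested. *Cd74*, the invariant chain, had 4, 12 and 22 reads in WT and 271, 242 and 297 in SKO (3.88 ± 0.44, adjusted p = 0.000202, limma). *H2-Ab1*, a class II chain, had 21, 32 and 70 reads in WT and 379, 575 and 651 in SKO.

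Other cell types moved less. Of 14 Sertoli cell genes *Clu*, a secreted chaperone that other cells also make, rose and none fell, with a median of 0.02 (−0.17 without rescaling). *Sox9*, the Sertoli cell factor, had 7, 38 and 23 reads in WT and 16, 3 and 36 in SKO. *Amh* had 0 to 3 reads in any library. Of 8 endothelial genes *Cd34*, also a fibroblast marker, rose, and *Kdr* and *Tie1* stayed at 9 reads or fewer. *Cdh5*, the endothelial cadherin, had 0, 0 and 1 reads in WT and 25, 34 and 6 in SKO (1.67 ± 0.61, adjusted p = 0.0989, limma). The endothelial list summed to 28.6 to 42.5 RPM in WT and 49.4 to 61.2 in SKO. Neither of the 2 pericyte genes tested passed, although *Mcam*, an adhesion molecule, had 1119, 1157 and 1223 reads in WT and 1682, 1573 and 2447 in SKO (0.83 ± 0.15, adjusted p = 0.004, limma). The marker *Rgs5* had 1 read in a single library. The 13 lymphocyte genes had a median of 1.39 with no negative value, and summed to 69.4 to 99.9 RPM in WT and 154 to 224 in SKO. Among them *Cd2* and *Nkg7*, a T-cell adhesion receptor and a granule protein, rose, while *Cd3e*, part of the T-cell receptor, had 28, 30 and 25 reads in WT and 28, 60 and 32 in SKO. Only 1 red blood cell gene was tested, and it did not pass. Leydig cell genes summed to 53.5 to 88.1 RPM in WT pre-leptotene libraries and 122 to 823 in *Nat10*-SKO pre-leptotene libraries.

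Immediate early genes, which cells switch on within minutes of a stimulus, rose in the SKO spermatogonia. Of 37 tested 18 rose and none fell, with a median of 1.20, and 22 had every SKO library above every WT library. The list summed to 555, 579 and 596 RPM in WT and 1423, 1213 and 1018 in SKO. *Fos* had 138, 108 and 99 reads in WT and 2069, 1190 and 1129 in SKO (3.68 ± 0.26, adjusted p = 8.34e-06, limma). *Fosb*, its relative, had 2, 6 and 7 reads in WT and 459, 312 and 389 in SKO. *Egr1*, a zinc finger factor, had 142, 70 and 111 reads in WT and 1108, 945 and 506 in SKO (3.01 ± 0.33, adjusted p = 0.000179, limma). The lowest SKO library of each exceeded its highest WT library. *Ctgf*, a matricellular target of YAP, had 1, 0 and 0 reads in WT and 341, 298 and 79 in SKO. The early gene sum ranked the SKO libraries in the same order as the Leydig, fibroblast and macrophage sums, and the part of somatic cells in this result was not tested. Left-out libraries gave 16 to 18 genes.

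**Figure D3:**
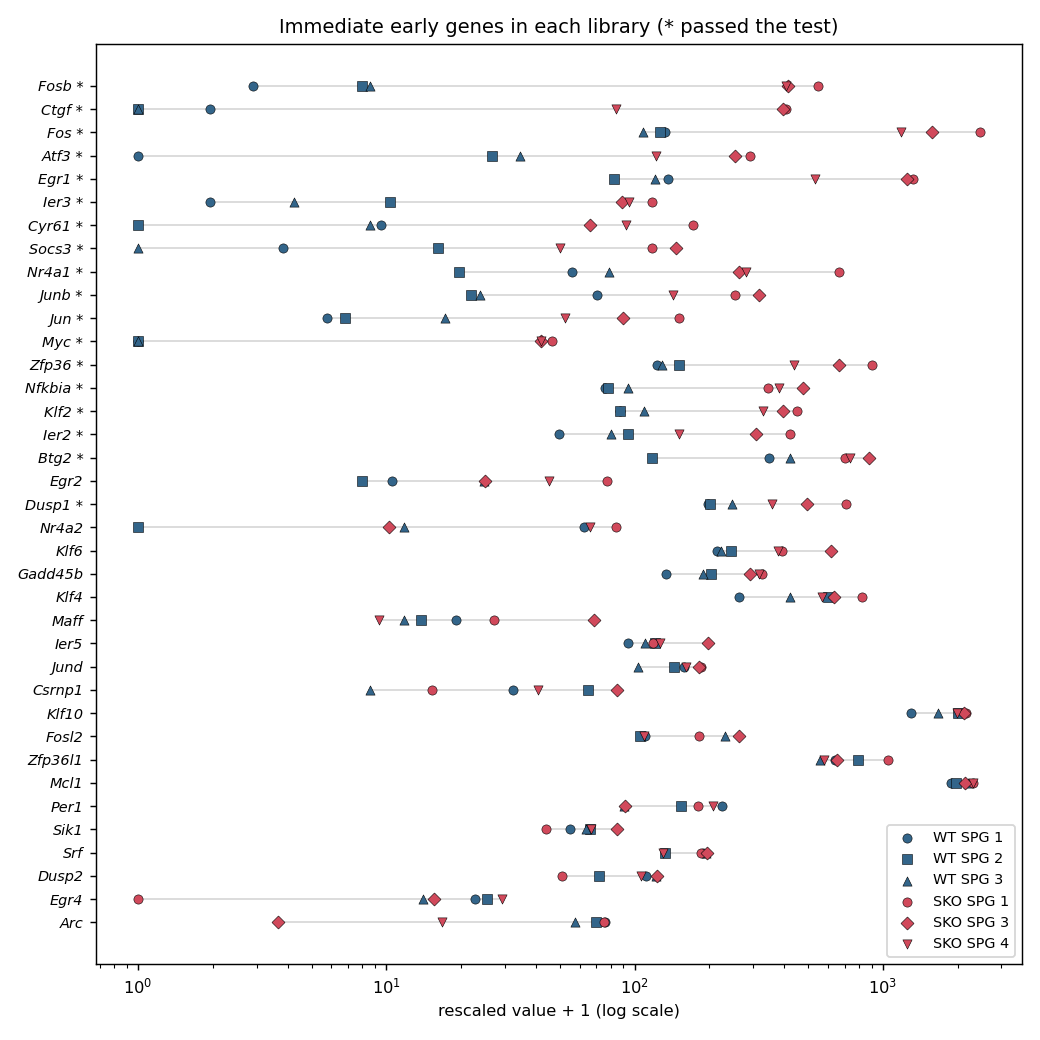
Rescaled value plus 1 (x axis, log scale) of the 37 tested immediate early genes (y axis, ordered by log2 fold change) in each WT (blue) and SKO (red) library, with an asterisk for the 18 that passed. For *Fosb*, *Fos* and *Egr1* all SKO points lie to the right of all WT points, while genes at the bottom such as *Arc* and *Egr4* overlap.

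A minority of stress genes rose. Of 26 ATF4 and unfolded protein response genes 4 rose and none fell, with a median of 0.16 (−0.03 without rescaling, where 2 rose). The count was also 2 without WT SPG 2, SKO SPG 1 or SKO SPG 4. *Atf3*, also an immediate early gene, had 0, 22 and 31 reads in WT and 243, 190 and 115 in SKO. *Nupr1*, a stress-induced nuclear protein, had 10, 0 and 11 reads in WT and 116, 52 and 58 in SKO. *Herpud1*, an endoplasmic reticulum degradation factor, had 504, 200 and 451 reads in WT and 773, 587 and 713 in SKO (1.08 ± 0.26, adjusted p = 0.0171, limma). *Atf4* changed by 0.59 ± 0.20 (adjusted p = 0.0735, limma) and *Ddit3*, encoding CHOP, by 0.86 ± 0.36 (adjusted p = 0.15, limma). Of 25 p53 target genes only *Btg2* rose, which is near the 3.95% of all tested genes that were higher. *Btg2*, also counted among the immediate early genes that rose, had 366, 100 and 388 reads in WT and 587, 660 and 704 in SKO. *Cdkn1a*, encoding p21, changed by 0.78 ± 0.41 (adjusted p = 0.249, limma). Of 27 heat shock proteins *Hspa1l*, a testis form, fell.

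Signals that act on spermatogonia also held genes that rose, and which cells made these transcripts was not tested. Of 18 retinoic acid genes 5 rose and none fell, and 3 rose without WT SPG 3, SKO SPG 1 or SKO SPG 3. *Aldh1a1*, which makes retinoic acid, had 83, 129 and 173 reads in WT and 2157, 1174 and 937 in SKO (3.49 ± 0.34, adjusted p = 7.7e-05, limma). *Cyp26b1*, which breaks retinoic acid down and is known from peritubular and fetal Sertoli cells, had 83, 61 and 82 reads in WT and 559, 259 and 341 in SKO (2.32 ± 0.33, adjusted p = 0.000817, limma). Neither gene overlapped between genotypes. Of 22 GDNF, FGF and KIT niche genes 4 rose, among them *Igf1* (114, 1 and 52 reads in WT, and 490, 314 and 363 in SKO) and *Csf1* (3, 0 and 1 in WT, and 93, 55 and 36 in SKO). *Cxcl12* rose in this list too, and both *Cxcl12* and *Igf1* are also counted among the interstitial fibroblast genes that rose. *Spry2*, a feedback inhibitor of receptor tyrosine kinases, had 556, 1076 and 869 reads in WT and 2346, 1722 and 1103 in SKO, and its rescaled values overlapped.

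In the TGF-beta superfamily 6 of 29 genes rose and 1 fell. *Tgfbr3*, the co-receptor betaglycan, had 7, 0 and 0 reads in WT and 151, 154 and 163 in SKO (4.04 ± 0.48, adjusted p = 0.000268, limma). *Ltbp4*, a binding protein of latent TGF-beta, had 3, 0 and 1 reads in WT and 137, 104 and 102 in SKO. The inhibitor *Smad7* fell, from 72, 104 and 64 reads in WT to 0, 15 and 9 in SKO (−2.38 ± 0.55, adjusted p = 0.0139, limma). *Pdgfra*, a receptor of stromal progenitors, and *Nrp1*, a VEGF co-receptor, were the 2 genes of 11 that rose in the Hedgehog, PDGF and VEGF list.

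Immune signals rose with the macrophage genes. Of 29 chemokines, cytokines and complement factors 12 rose and none fell, with a median of 1.75. *Ccl2*, a monocyte chemokine, had 34, 3 and 0 reads in WT and 143, 126 and 224 in SKO (3.47 ± 0.56, adjusted p = 0.00184, limma). *C1s*, a complement protease, had 7, 1 and 9 reads in WT and 205, 134 and 175 in SKO. Neither gene overlapped between genotypes here. Of 29 interferon-stimulated genes 7 rose, and the count was 3 without SKO SPG 1 and 4 without SKO SPG 3. *Ifitm3*, a membrane protein of antiviral defence, had 120, 1 and 66 reads in WT and 597, 292 and 229 in SKO (3.10 ± 0.71, adjusted p = 0.0127, limma). *B2m*, the light chain of MHC class I and named after its values were seen, had 1065, 592 and 710 reads in WT and 3033, 1779 and 1830 in SKO.

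Detoxification enzymes, annexins and lysosomal hydrolases were listed after the values were seen. Of 35 glutathione and xenobiotic genes 9 rose and none fell. *Gstm1*, a glutathione transferase, had 149, 90 and 107 reads in WT and 1399, 726 and 870 in SKO (3.14 ± 0.26, adjusted p = 1.87e-05, limma). Of 17 annexins and S100 proteins 9 rose and none fell, and *Anxa5* had 95, 42 and 105 reads in WT and 657, 565 and 488 in SKO. Without WT SPG 3 the annexin and S100 count was 3. Of 43 lysosomal hydrolases 7 rose, among them *Ctsc*, a lysosomal peptidase (54, 63 and 35 reads in WT, and 488, 340 and 283 in SKO), and the count was 4 without WT SPG 2 and 3 without WT SPG 3, SKO SPG 1 or SKO SPG 3. The *Gstm* genes are close paralogs, so reads could be split among them.

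The effect of genotype was compared between spermatogonia and pre-leptotene spermatocytes by an interaction term over 12 libraries. Of 13079 genes tested, 24 (0.184%) differed at an adjusted p (limma) under 0.05, and 19 of these had the more negative effect in spermatogonia. Among the largest changes, *Fosb* alone differed, with an effect of 5.10 in spermatogonia and 2.1 in pre-leptotene cells (difference 3.00, adjusted p = 0.0483, limma). *Tnp2* fell in both (−6.49 and −7.88, adjusted p of the difference 0.283, limma), and so did *Prm1* (−5.76 and −7.48, adjusted p = 0.186, limma). *Cyp17a1* had effects of 4.42 and 4.21 (adjusted p of the difference 0.967, limma), and *Nat10* had −0.87 and −1.28 (adjusted p = 0.59, limma). The count depended on the scaling and the tool, with 5668 genes without rescaling and 3 in edgeR's quasi-likelihood test.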

How the data were processed

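RNA-seq libraries from FACS-sorted cells were built from amplified cDNA with spike-in RNA and sequenced as paired-end reads. The submitters' processing notes name TopHat2 2.1.1, HTSeq 0.11.2, Cufflinks 2.2.1 and DESeq2, with builds mm9 and mm10. The deposited signal is gene counts that the authors scaled to the spike-ins (ERCC). Division by the smallest value above 0 gave whole reads for 100.0% of values (within 0.05 read). No deposited column was left unused. Each of the 6 libraries was rescaled by a size factor (median of ratios), and log2(value + 10) was fitted with limma 3.58.1 (R 4.3.3) with a mean-variance trend, without a block. Gene lists (41, and 6 made after the values were seen) were matched by symbol (1704 of 1713 entries). Members and lists were chosen with earlier results of these data known. Named genes were *Nat10*, the defining genes of each list, up to 4 members per list and direction that passed with the largest change, the 10 largest changes per direction that passed at a mean of 100 or more reads without overlap, and members of lists where none passed. Others were chosen after their values were seen, among them *B2m*, *Insig1*, *Dhcr7*, *Fbxo5* and *Cdca5*. Positions came from GENCODE vM21 (511 of 513 named genes). Strand was not stated, so overlapping genes share reads. edgeR 4.0.16 and DESeq2 1.42.0 were alternatives on the recovered reads. The fits were tested on simulated data. Reads of amplified cDNA carry no molecular identifiers, so floors cover counting error only. Values of some list members are not reported here. A log2 change of a gene near 0 reads in a group depends on the added 10.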

Additional observations from a re-analysis of the deposited data

Results flagged for a closer look

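Results were singled out where the genotype effect differed between spermatogonia and pre-leptotene cells by the limma interaction term. This held for 24 of 13079 genes, and 3 passed in edgeR. Among the largest changes it held for *Fosb*, whose log2 effect in spermatogonia was 3.00 above that in pre-leptotene cells. The adjusted p of 0.0483 (limma) is close to the threshold. The groups hold 3 libraries each, so no library was screened for standing apart from its group.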

How the results depend on the processing

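Of 152 named genes that passed, none changed sign under any of the 17 alternatives. Numbers that lost the call ranged from 0 (no fold threshold, and a mean of at least 50 reads among the 130 genes tested there) to 46 (no filter on low values). Genes lower in SKO spermatogonia numbered 578 without rescaling, 485 in 1 fit of all 17 libraries, 155 at a mean of at least 50 reads and 622 without a fold threshold. Genes higher numbered 325 without the filter on low values and 799 without a fold threshold. The split of 265 lower and 508 higher became 578 and 399 without rescaling. Spermatid transcripts lower numbered 12 at a mean of at least 50 reads. Sterol genes lower numbered 12 without rescaling, 3 without the filter and 12 without a fold threshold, and kinetochore, condensin and E2F genes lower numbered 17 without a fold threshold. Leydig genes higher numbered 3 without the filter, 5 at a mean of at least 50 reads and 5 in edgeR, and macrophage genes higher numbered 10 at a mean of at least 50 reads. *Nat10* passed at −1.14 without rescaling, −1.05 with the replicate block and −0.87 without a fold threshold. The interaction count was 5668 without rescaling and 3 in edgeR. The cause of these shifts was not tested.

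With 1 library left out at a time, genes lower numbered 118 to 277 (161 without WT SPG 1, 118 without WT SPG 3) and genes higher 305 to 418 (305 without WT SPG 3). The ranges were 14 to 22 for spermatid transcripts, 3 to 8 for sterol genes, 6 to 10 for kinetochore, condensin and E2F genes, 16 to 18 for immediate early genes, 5 to 7 for Leydig genes, 14 to 16 for fibroblast genes and 11 to 16 for macrophage genes. *Nat10* ranged from −0.98 to −0.71, with an adjusted p (limma) of 0.0456 to 0.134 (0.0573 without the filter and with all libraries), and the summed calibrated values of SKO over WT from 0.767 to 0.869 (0.821 with all 6 libraries). Summed levels of SKO over WT ranged from 0.275 to 0.396 for spermatid transcripts, 3.10 to 4.89 for Leydig, 5.20 to 6.94 for fibroblast and 2.92 to 3.95 for macrophage genes.

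Without SKO SPG 4, which had the most genes with a read, counts that changed included 20 for spermatid transcripts lower, and, for genes higher, 1 for meiotic entry, 7 for Leydig, 6 for myoid, 15 for fibroblast, 8 for matrix, 16 for macrophage, 5 for interferon-stimulated and 4 for retinoic acid genes. Counts of 1 or 2 genes in a list were often lost when a library was left out, as for *Upp1*, *Btg2*, *Hspa1l*, *Nop10*, *Tarsl2*, *Hist1h2bc* and *Cd34*.

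The labels' replicate numbers 1 and 3 occur in both genotypes. Deviations from the group means correlated at 0.0788 and 0.000209 for these numbers, so no pairing was seen. With only these numbers shared, the check cannot exclude a shared animal or sorting day. The replicate block gave 294 lower and 514 higher genes, of which 194 and 392 were shared with the fit without it.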

Other observations

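The genes that passed in spermatogonia were looked up in WT leptotene/zygotene over WT pre-leptotene libraries, which the comparison did not use. The median log2 ratio was 0.42 for the genes that fell and 0.46 for those that rose, against 0.01 for all 12846 tested genes. Of the genes that fell 34% were more than 1 log2 unit higher in WT leptotene/zygotene, of those that rose 32.5%, and of all tested genes 21.7%. Spermatid transcripts summed to 4900 to 6792 RPM in WT leptotene/zygotene libraries and to 108 to 117 in the SKO ones. Immediate early genes summed to 626 to 670 RPM in WT pre-leptotene libraries and 618 to 1061 in SKO ones.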
